A study of Homo sapiens with 8 samples.

Results

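The genes described here are 10 targets and brakes of the ERK pathway: the transcription factors EGR1 and EGR2, the early response genes IER3 and PHLDA1, the MAP kinase phosphatases DUSP1, DUSP2, DUSP4, DUSP5 and DUSP6, and the signalling inhibitor SPRY2. They were taken by symbol, with every probe set that the platform annotation gave 1 of these symbols, and 9 of the 10 genes had at least 1, with 18 probe sets among the 22215 tested and 9 genes among 11963. No probe set carried the symbol EGR2 in the annotation used, so EGR2 was not analysed here. Expression was measured on 8 single-colour Affymetrix human arrays in 4 groups of 2: THP-1 with 100 µM diclofenac, THP-1 with DMSO, HL-60 with 100 µM diclofenac and HL-60 with DMSO, all for 48 h. THP-1 is labelled as a monocytic and HL-60 as a promyelocytic leukaemia line, and diclofenac is a cyclooxygenase inhibitor. All cells grew in RPMI-1640 with 10% serum, the DMSO groups received the solvent in equal amount, and 1 dose and 1 time were sampled. Each line is 1 established line, the replicates are titled as biological with no word on separate cultures, and the p-values measure the spread between these arrays.

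ERK is the last kinase of the RAS, RAF and MEK cascade, which carries growth factor and cytokine signals to the nucleus. Active ERK turns on the immediate early genes, among them EGR1, within minutes, and a slower set of genes whose products shut the signal off. These include DUSP phosphatases, which strip the activating phosphates from ERK, p38 and JNK, and Sprouty proteins, which act upstream at the step to RAS. In myeloid cells EGR1 is known for its part in monocyte differentiation.

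The promoters of EGR1, DUSP6 and PHLDA1 are shown because the representative probe sets of these 3 genes had the largest differences with diclofenac in THP-1 over all arrays. Without THP-1 DMSO replicate 2, described below, DUSP1 had a larger one (1.56), but against a DMSO reading of 18.9 that was not above background. Each sequence runs 5′ to 3′ on the gene's own strand, from 250 bases before the annotated start through 50 from the start on, from RefSeq on GRCh38.p14. Capitals mark matches to the motifs searched. EGR1 lies at chr5:138465229-138465528 on the plus strand, DUSP6 at chr12:89352452-89352751 and PHLDA1 at chr12:76031727-76032026, both on the minus strand.
EGR1: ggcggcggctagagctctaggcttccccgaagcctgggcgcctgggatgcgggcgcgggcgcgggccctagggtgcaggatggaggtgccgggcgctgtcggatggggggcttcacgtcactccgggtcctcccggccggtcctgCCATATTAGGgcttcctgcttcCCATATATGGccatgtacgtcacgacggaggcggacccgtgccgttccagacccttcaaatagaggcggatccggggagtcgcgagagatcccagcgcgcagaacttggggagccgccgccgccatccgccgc
DUSP6: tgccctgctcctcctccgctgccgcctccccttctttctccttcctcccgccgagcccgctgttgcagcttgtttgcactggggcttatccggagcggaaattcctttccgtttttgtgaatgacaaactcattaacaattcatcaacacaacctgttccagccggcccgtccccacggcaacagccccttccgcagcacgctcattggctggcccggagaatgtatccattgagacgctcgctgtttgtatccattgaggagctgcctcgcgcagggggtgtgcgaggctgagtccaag
PHLDA1: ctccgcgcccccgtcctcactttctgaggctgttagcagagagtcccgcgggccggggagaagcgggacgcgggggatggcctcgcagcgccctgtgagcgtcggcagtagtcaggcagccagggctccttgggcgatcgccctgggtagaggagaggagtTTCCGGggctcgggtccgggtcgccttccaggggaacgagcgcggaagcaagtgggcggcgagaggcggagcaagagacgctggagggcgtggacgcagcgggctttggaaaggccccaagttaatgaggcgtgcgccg

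The motifs were the CArG box bound by serum response factor, the cyclic AMP response element TGACGTCA, the AP-1 site TGANTCA and the ETS core CCGGAA, each on both strands, and no 2 matches overlapped. EGR1 held 2 CArG boxes, from -105 to -96 and from -83 to -74 counted from the annotated start at 0, whereas 1.29% of 35116 promoter windows in the table held at least 1. PHLDA1 held 1 ETS core from -89 to -84, a motif present in 17.2% of windows. The DUSP6 window held none of the 4 motifs. Windows were given for 6 of the 9 genes, with 3 starts for SPRY2. Among the other 3 genes, DUSP1 held 1 cyclic AMP response element from -125 to -118 (1.85% of all windows), 1 SPRY2 start held an ETS core, and DUSP2 held no match. The AP-1 site was in 7.71% of all windows and in 0 of the 6 genes. A match says only that these letters are present. A missing match says only that these exact letters are absent, and ETS sites with letters other than CCGGAA were not searched.

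**Figure D1:**
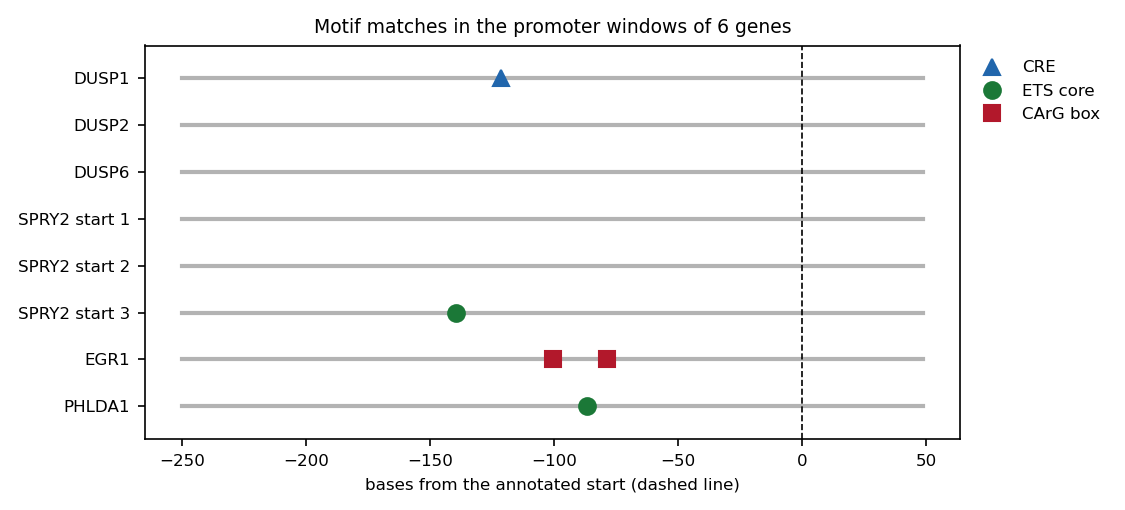
Motif matches in the promoter windows of 6 genes, by distance in bases from the annotated start (dashed line at 0). Grey lines are the windows and symbols the motif matches, and EGR1 is the 1 gene of the 6 with CArG boxes, at -105 to -96 and -83 to -74.

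The deposited intensities were linear with the same trimmed mean on each array (500.1 to 500.2). THP-1 DMSO replicate 2, called the high-background array below, stood apart: its median intensity was 241.2 against 109.6 to 150.3 on the other 7 arrays, and its background, taken as the 95th percentile over 27 control probe sets of bacterial sequence, was 238.6 against 33.2 to 60.2. It correlated with its replicate at 0.898, and the other 3 replicate pairs at 0.977 to 0.984. Log2 differences of the 9 genes that rest on the THP-1 DMSO group are therefore also given without it, and the value or adjusted p of another gene where it moved the value by over 1.4 times or ended a call. Lines are named as labelled. The monocyte markers CD14 and CSF1R were 45.2 to 332.9 and 221.6 to 426.3 on the THP-1 arrays, against 3.2 to 28.9 and 78.6 to 138 on the HL-60 arrays, but the granulocytic marker MPO was higher and MEIS1 lower on the arrays labelled THP-1 (MPO 170.6 to 235.6 and MEIS1 237.5 to 383.8) than on those labelled HL-60 (40.6 to 61.2 and 635.3 to 684.3), so these markers did not settle the type of either line. Of the other granulocytic markers, AZU1 and PRTN3 were also higher on every THP-1 array, whereas ELANE, CTSG and MS4A3 overlapped between the lines. The other measured monocyte markers, lysozyme, ITGAM, FCGR1A and CD36, all overlapped between the lines. Of the T cell, B cell and erythroid markers, 9 were measured, and their summed intensity per list was at most 314.8 on the 7 other arrays and at most 885.7 on THP-1 DMSO replicate 2. CD3G and ALAS2 were above background on no array. In RNA from whole cultures, more cells that express a gene and more RNA per cell cannot be told apart.

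The 10 genes were chosen by symbol with the log2 differences of diclofenac minus DMSO on these arrays known, so the list counts as selected on those differences, which are given here as descriptions. Log2 values are of the deposited intensity plus 50 after quantile normalization, differences are between group means with the moderated standard error of limma, and a call is an adjusted p below 0.05 over all 22215 probe sets. A gene with several probe sets is described first by its representative.

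EGR1 was the transcription factor of the group. Its representative 201694_s_at read 900.2 and 923.6 in THP-1 with diclofenac, against 444.2 and 462.1 in THP-1 with DMSO. HL-60 cells gave 204.3 and 208.8 with diclofenac, against 294.3 and 350.1 with DMSO. The 4 groups did not overlap: THP-1 with diclofenac was highest and HL-60 with diclofenac lowest, so the arrays moved up in 1 line and down in the other. The log2 difference of diclofenac minus DMSO was 1.01 ± 0.21 in THP-1 (2.01-fold, SE, n = 2 arrays per group), or 0.90 without the high-background array, and -0.43 ± 0.21 in HL-60. The other EGR1 probe set, 201693_s_at, did not repeat this pattern, with 0.32 ± 0.32 in THP-1 (0.32 also without the high-background array) and 0.06 ± 0.32 in HL-60.

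IER3, an early response protein linked to cell survival, read 182.4 and 197.7 in THP-1 with diclofenac, against 127.3 and 241.5 with DMSO. The HL-60 arrays gave 186.8 and 180 with diclofenac, against 283.9 and 152.6 with DMSO. Its deposited values overlapped between the treatments in both lines, and the differences were 0.42 ± 0.32 in THP-1 (0.37 without the high-background array) and -0.06 ± 0.32 in HL-60.

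PHLDA1, a pleckstrin homology-like protein linked to apoptosis, had 5 probe sets. Its representative 217996_at read 279.5 and 281.7 in THP-1 with diclofenac, against 103.9 and 129 with DMSO, where it was above background on replicate 1 alone. In HL-60 it read 146.1 and 204.5 with diclofenac, against 222.2 and 181.2 with DMSO. The THP-1 treatments were apart and the HL-60 treatments overlapped. The log2 difference was 1.30 ± 0.34 in THP-1 (1.03 without the high-background array) and -0.05 ± 0.34 in HL-60. The other PHLDA1 probe sets differed by 0.00 to 0.93 in THP-1 (0.13 to 0.83 without the high-background array) and by 0.06 to 0.59 in HL-60. Of these, 217999_s_at and 218000_s_at were each above background on 1 of 8 arrays.

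DUSP6, the cytoplasmic phosphatase specific for ERK, read higher on every diclofenac array than on every DMSO array of the same line by its representative. Its representative 208891_at read 1339.3 and 1359.6 in THP-1 with diclofenac, against 647.2 and 736.5 with DMSO. In HL-60 DUSP6 read 2680.3 and 2779.4 with diclofenac, against 1576.8 and 1644.6 with DMSO. The 4 groups did not overlap, and both HL-60 groups lay above both THP-1 groups. The log2 difference was 0.89 ± 0.10 in THP-1 (1.86-fold, and 0.98 log2 units without the high-background array) and 0.71 ± 0.10 in HL-60 (1.64-fold). The probe sets 208892_s_at and 208893_s_at differed by 1.59 ± 0.36 and 1.56 ± 0.25 in THP-1, with no overlap of the treatments. In HL-60 they differed by 0.23 ± 0.36 and 0.41 ± 0.25, and the treatments overlapped for 208892_s_at. With replicate 1 as the only THP-1 DMSO array these THP-1 values were 0.98 and 1.55.

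DUSP1, DUSP2, DUSP4 and DUSP5 are inducible phosphatases of the nucleus. DUSP1, which acts on p38 and JNK as well as ERK, read 166.9 and 149.9 on 201041_s_at in THP-1 with diclofenac, against 18.9 and 277.2 with DMSO. The 4 HL-60 arrays gave 32.3 and 72 with diclofenac, against 105.2 and 59.2 with DMSO. The DUSP1 values of the THP-1 DMSO replicates lay on either side of both diclofenac arrays, and the THP-1 difference of 0.81 ± 0.51 was 1.56 without the high-background array. That 1.56 is set against the reading of 18.9 on replicate 1, which was not above the background of that array (33.2). The HL-60 difference was -0.20 ± 0.51. Its other probe set, 201044_x_at, was above background on 1 of 8 arrays.

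DUSP2, a phosphatase of activated immune cells, was lower with diclofenac on both THP-1 arrays, the 1 gene of the 9 on that side by its representative, at 130.3 and 124.3 against 192.4 and 333.3 with DMSO. In HL-60 it was higher, at 190.3 and 224.7 with diclofenac against 150.2 and 128.2 with DMSO. The treatments were apart in both lines, in opposite directions. The log2 difference was -0.52 ± 0.30 in THP-1 (-0.54 without the high-background array) and 0.54 ± 0.30 in HL-60.

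DUSP4 was above background on the HL-60 arrays and on none of the THP-1 arrays by its representative 204014_at, with 9.8 and 46.2 in THP-1 with diclofenac and 19 and 40.3 in THP-1 with DMSO. In HL-60 DUSP4 read 156.7 and 154.7 with diclofenac, against 234.4 and 211.8 with DMSO, a difference of -0.27 ± 0.38. The other DUSP4 probe set, 204015_s_at, was above background on the HL-60 arrays and on 3 of the 4 THP-1 arrays, with 155.2 and 152 in THP-1 with diclofenac, against 125.4 and 139.9 with DMSO. In HL-60 it read 286.8 and 292 with diclofenac, against 348.4 and 339.8 with DMSO. It differed by 0.51 ± 0.32 in THP-1 (0.14 without the high-background array) and by -0.15 ± 0.32 in HL-60. DUSP5, specific for ERK, read 174.2 and 175.3 in THP-1 with diclofenac, against 134.1 and 220.3 with DMSO. In HL-60 DUSP5 read 398.7 and 423.5 with diclofenac, against 446.7 and 396.1 with DMSO. DUSP5 values overlapped between the treatments in both lines, with differences of 0.36 ± 0.25 in THP-1 (0.21 without the high-background array) and 0.02 ± 0.25 in HL-60.

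SPRY2, the Sprouty inhibitor that restrains receptor signalling to RAS, had the smallest range of group means among the 9 representatives. It read 757.3 and 676.5 in THP-1 with diclofenac, against 616.3 and 582.3 with DMSO. In HL-60 SPRY2 read 608.8 and 537.4 with diclofenac, against 567.2 and 546.9 with DMSO. Differences were 0.28 ± 0.16 in THP-1 (0.17 without the high-background array) and 0.07 ± 0.16 in HL-60.

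**Figure D2:**
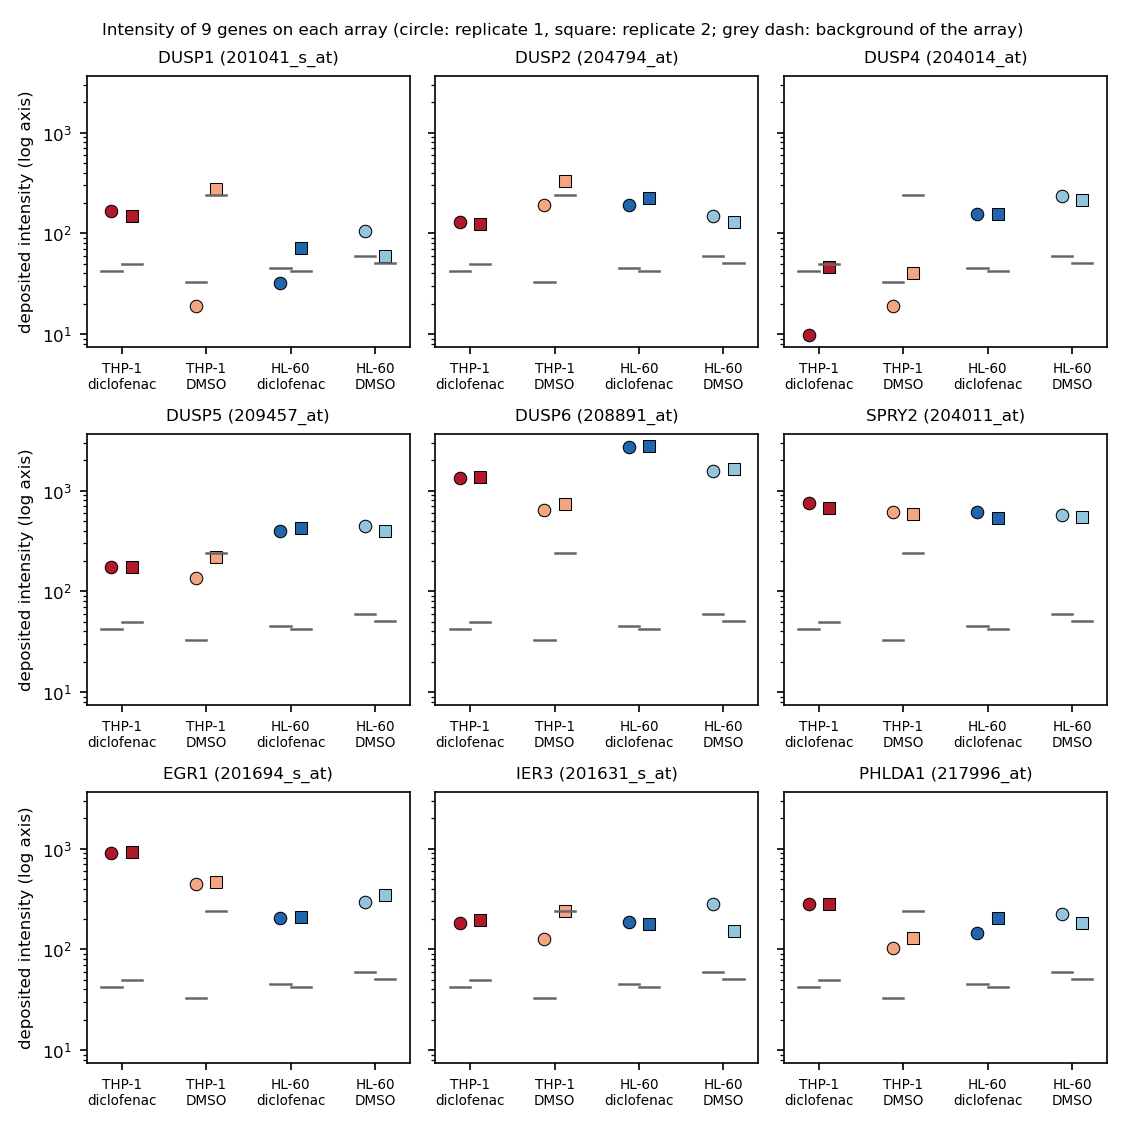
Deposited intensity (log axis) of the representative probe set of each of the 9 genes on each array, with circles for replicate 1, squares for replicate 2 and a grey dash for the background of that array. DUSP6 separates all 4 groups, with HL-60 above THP-1, EGR1 is highest in THP-1 with diclofenac (900.2 and 923.6), and DUSP4 204014_at is above background on the HL-60 arrays alone.

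In THP-1 the representatives of 8 of the 9 genes had a difference above 0, DUSP2 being the exception, and the median was 0.42 log2 units, beside -0.02 over all genes. The median was 0.37 with the high-background array left out, again with 8 of 9 above 0. In HL-60, 4 of the 9 were above 0 and the median was -0.05, beside 0.00 over all genes. With each array centred on its median instead of quantile normalization, all genes shifted by 0.17 in THP-1 and 0.10 in HL-60, and the median of the 9 genes relative to that shift was 0.42 in THP-1 and -0.10 in HL-60. On the deposited scale all genes shifted by -0.18 for THP-1 and by -0.06 for HL-60. The relative values are the same there by construction, since centring only subtracts 1 constant per array, so they are no second check. CD14, the monocyte co-receptor for lipopolysaccharide, read 332.9 and 310.5 in THP-1 with diclofenac, against 55.6 and 45.2 with DMSO. The summed intensity of the 6 measured monocyte markers, most of it lysozyme, was 15638.8 to 15822 in THP-1 with diclofenac and 10092.4 to 15359 with DMSO, the lower sum with DMSO being that of the high-background array. Of the 6 markers, 5 were above background on both THP-1 diclofenac arrays and 3 on both THP-1 DMSO arrays, where CD14 was above it on replicate 1 alone. CSF1R and lysozyme overlapped between the treatments: CSF1R read 255.7 and 221.6 with diclofenac, against 252.2 and 426.3 with DMSO, lysozyme 15094 and 14931.9, against 14975.6 and 9230.5, and CD36 was not above background with diclofenac. The part of the CD14 difference in the gene group's values was not tested.

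Of the 18 probe sets, 1 was called in THP-1, DUSP6 208891_at upward, beside 0.131% of all probe sets called higher there, 0.0045% called lower and 0.135% in all. With 1 probe set per gene 1 of 9 genes was called, beside 0.15% of all genes higher and 0.00836% lower. An unadjusted p under 0.05 was found for 6 of the 18, beside 10.6% of all probe sets. In HL-60 limma called 0 of the 18, beside 0.0045% higher and 0% lower (0.00836% of genes higher), and 1 of the 18 had an unadjusted p under 0.05, beside 4.51%. After normalization the arrays of the 2 treatments were apart for 13 probe sets upward and 1 downward in THP-1, beside 18.6% and 20.9% of all probe sets, and for 5 upward and 4 downward in HL-60, beside 20.1% and 19.2%. These shares are given as background, since the members were chosen with these contrasts known. On the deposited scale 9 probe sets in place of 14 were apart in THP-1, and the share of all probe sets was not computed on that scale. The DUSP6 call was lost under median centring, without the intensity trend, with a replicate block, with THP-1 fitted alone and without any 1 of the 4 HL-60 or 2 THP-1 diclofenac arrays. With the high-background array as the only THP-1 DMSO array, 6 of the 18 were called and 6898 of all probe sets, and 1 of the 18 in HL-60 (11 of all probe sets).

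The difference between the 2 lines' responses was called for 0 of the 18 probe sets by limma, beside 0.0045% of all probe sets higher and 0% lower, and 5 had an unadjusted p under 0.05, beside 6.95%. The arrays moved in opposite directions for 2 probe sets upward in THP-1 and 1 downward, beside 3.59% and 4.05% of all probe sets. For EGR1 201694_s_at the THP-1 response exceeded the HL-60 response by 1.44 ± 0.30 log2 units (1.35 without the high-background array). For DUSP6 208891_at the excess was 0.18 ± 0.15 (0.26 without it), close to its error. The other DUSP6 probe sets had a larger excess, at 1.36 ± 0.51 for 208892_s_at (0.74) and 1.15 ± 0.36 for 208893_s_at (1.13). The excess was 1.35 ± 0.48 for PHLDA1 217996_at (1.08) and -1.06 ± 0.42 for DUSP2 (-1.11). The other PHLDA1 probe sets did not share a sign. PHLDA1 217998_at, above background on all 8 arrays, had -0.55 ± 0.57 (-0.15), and 217997_at had 0.73 ± 0.55 (0.64). The dim 217999_s_at and 218000_s_at had 0.54 ± 0.44 (0.57) and -0.39 ± 0.43 (-0.26). With the high-background array as the only THP-1 DMSO array, 5 of the 18 were called and 4036 of all probe sets.

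**Figure D3:**
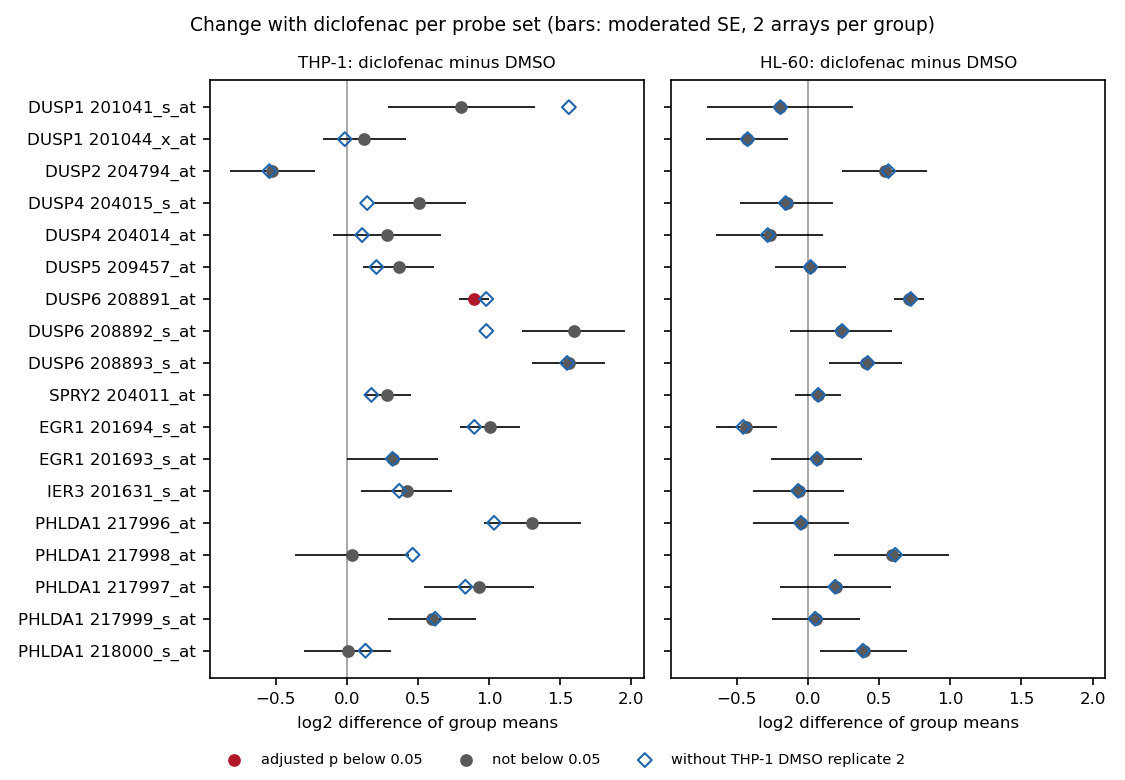
Log2 difference of diclofenac minus DMSO for each of the 18 probe sets in THP-1 (left) and HL-60 (right), with bars of 1 moderated SE. Red marks an adjusted p below 0.05 and open diamonds the value without THP-1 DMSO replicate 2. DUSP6 probe sets lie right of 0 in both lines, and EGR1 201694_s_at lies right of 0 in THP-1 and left of it in HL-60.

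The lines were then compared with each other under each treatment. These comparisons share their arrays with those above. With DMSO, 6 of the 18 probe sets were lower in THP-1 than in HL-60 and 0 higher, beside 7.72% and 7.59% of all probe sets (15.3% in all). By genes, 3 of 9 were lower, beside 8.79% of all genes lower and 8.62% higher. An unadjusted p under 0.05 was found for 7, beside 27.7%, and the arrays were apart for 2 upward and 8 downward, beside 24.8% and 24.7%. The 6 called came from 3 phosphatase genes, DUSP4, DUSP5 and DUSP6, so they are not 6 independent observations. DUSP6 208891_at differed by -1.15 ± 0.10 (THP-1 minus HL-60, limma adjusted p = 0.00017), 208892_s_at by -1.68 ± 0.36 (adjusted p = 0.015) and 208893_s_at by -2.42 ± 0.25 (adjusted p = 0.00037). DUSP5 differed by -1.32 ± 0.25 (adjusted p = 0.0086). DUSP4 204014_at was not above background in THP-1 and was at least 2.1-fold higher in HL-60 with DMSO (limma adjusted p = 0.0082), the bound being taken against the higher of the background and the measured value on each THP-1 array. The other DUSP4 probe set differed by -1.35 ± 0.32 (adjusted p = 0.024).

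Without the high-background array, 6 of the 18 were again called (4127 of all probe sets in place of 3402), and the values were -1.25 for DUSP6 208891_at, -1.07 for 208892_s_at, -2.45 for 208893_s_at, -1.21 for DUSP5, -1.03 for DUSP4 204015_s_at and -1.85 for 204014_at. Leaving out HL-60 DMSO replicate 1 gave 3 (1693 of all probe sets) and leaving out replicate 2 gave 2 (1856), and DUSP4 204014_at (limma adjusted p = 0.054 and 0.056) and DUSP5 (0.078 and 0.062) were then no longer called. With the 2 DMSO groups fitted alone 2 were called (1523 of all probe sets), and DUSP4 204014_at had an adjusted p of 0.071 and DUSP5 of 0.12. DUSP6 208891_at was called under every alternative run for this comparison. The value of -1.85 for DUSP4 204014_at is set against a THP-1 DMSO reading of 19, which was not above background.

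With diclofenac, 4 of the 18 probe sets were lower in THP-1 than in HL-60 and 1 was higher, beside 6.22% and 6.79% of all probe sets (13% in all). By genes, 3 of 9 were lower and 1 higher, beside 7.22% and 7.65% of all genes. An unadjusted p under 0.05 was found for 5, beside 22.9%, and the arrays were apart for 6 upward and 8 downward, beside 28.6% and 30.3%. EGR1 201694_s_at was the higher one, by 1.81 ± 0.21 log2 units (3.5-fold, limma adjusted p = 0.00073). With DMSO the same probe set differed by 0.37 ± 0.21 (adjusted p = 0.3, and 0.53 log2 units without the high-background array), and the other EGR1 probe set differed by 0.39 ± 0.32 with diclofenac (adjusted p = 0.59). The EGR1 call was kept under every alternative run. DUSP6 208891_at differed with diclofenac by -0.97 ± 0.10 (adjusted p = 0.00046) and 208893_s_at by -1.27 ± 0.25 (adjusted p = 0.012), whereas 208892_s_at differed by -0.32 ± 0.36 (adjusted p = 0.75). The call of DUSP6 208891_at was lost under median centring alone (adjusted p = 0.13).

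DUSP5 was lower in THP-1 with diclofenac, at -0.97 ± 0.25 (limma adjusted p = 0.036), and DUSP4 204014_at, not above background in THP-1, was at least 2.18-fold higher in HL-60 with diclofenac (adjusted p = 0.038). Both calls were lost under median centring (adjusted p = 0.087 for DUSP5 and 0.054 for DUSP4), with a replicate block (0.1 and 0.092) and without any 1 of the 4 diclofenac or 2 HL-60 DMSO arrays (0.081 to 0.26 for DUSP5 and 0.067 to 0.32 for DUSP4). The DUSP4 call was also lost on the deposited scale (0.059) and with an offset of 16 (0.054). DUSP1, DUSP2, SPRY2, IER3 and PHLDA1 were called between the lines under neither treatment. Without the high-background array, which bears on this comparison only through the spread and the normalization, 7 of the 18 were called with diclofenac, among them DUSP1 201041_s_at (1.00, adjusted p = 0.048), while the calls over all probe sets were 5054 in place of 2890. Without any 1 of the 4 diclofenac arrays 2 were called (1260 to 1394 of all probe sets), and without either HL-60 DMSO array 3 (2413 and 2420).

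**Figure D4:**
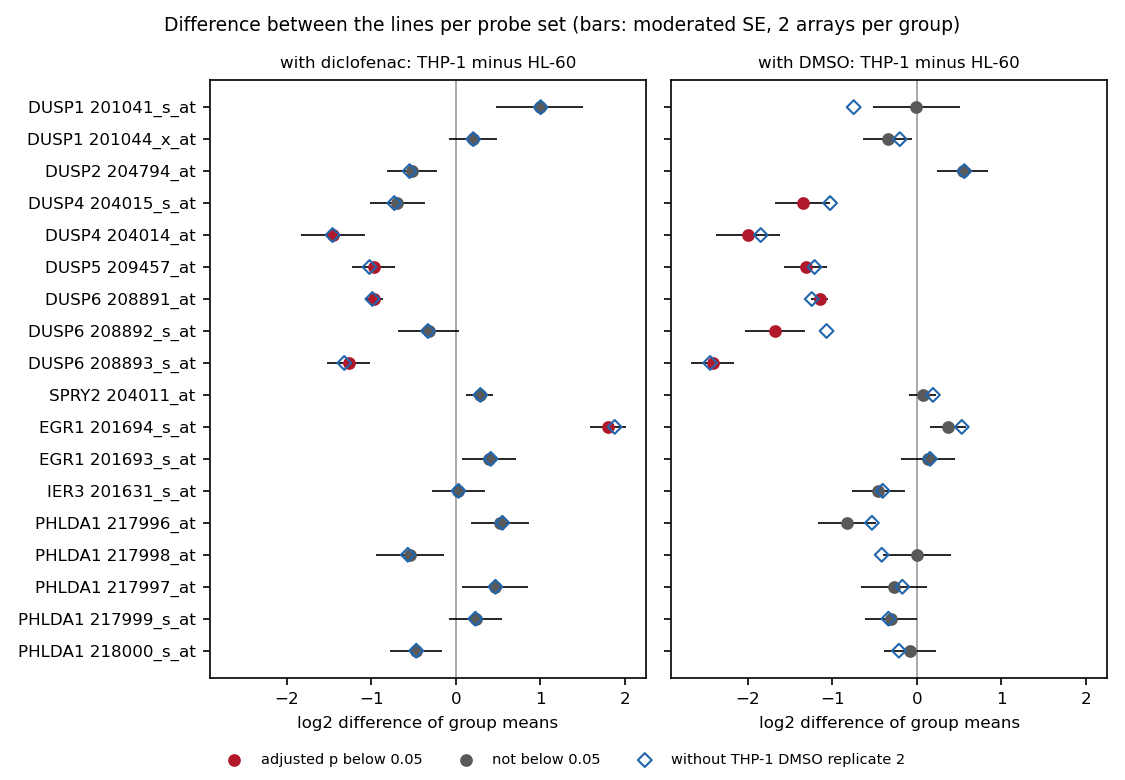
Log2 difference of THP-1 minus HL-60 for each of the 18 probe sets with diclofenac (left) and with DMSO (right), with bars of 1 moderated SE. Red marks an adjusted p below 0.05 and open diamonds the value without THP-1 DMSO replicate 2. The DUSP4, DUSP5 and DUSP6 probe sets lie left of 0 in both panels, and EGR1 201694_s_at lies at 1.81 with diclofenac and at 0.37 with DMSO.

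The other genes of the pathway were taken from 4 lists with 103 genes, of which 87 were measured. Of the 9 other MAP kinase phosphatases, limma called 0 with diclofenac in either line, and 0 had an unadjusted p under 0.05. The median of this list was 0.14 in THP-1 (-0.01 without the high-background array) and 0.00 in HL-60. The values furthest from 0 in THP-1 rested on the high-background array: PTPRR, at -1.13, was -0.01 without it, and DUSP22, at 1.01, was -0.23. DUSP7, a cytoplasmic ERK phosphatase like DUSP6, differed between the lines the other way from DUSP6, being higher in THP-1 by 0.53 ± 0.13 with diclofenac (limma adjusted p = 0.032) and by 0.74 ± 0.13 with DMSO (adjusted p = 0.0061).

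Of the 20 other ERK feedback and output genes, 18 were above background on at least 1 array, and limma called 0 with diclofenac in either line. An unadjusted p under 0.05 was found for 3 in THP-1 and 2 in HL-60, beside 10.6% and 4.51% of all probe sets. RGS16, a brake of G protein signalling, had 0.87 ± 0.34 in THP-1 (adjusted p = 0.43) and RASA2, a RAS GTPase activator, 0.82 ± 0.43 (0.5, and 0.29 log2 units without the high-background array). Between the lines, the pseudokinase gene TRIB1 was higher in THP-1 by 1.47 ± 0.31 with diclofenac (limma adjusted p = 0.014) and by 1.79 ± 0.31 with DMSO (0.005). SPRED2, a RAS inhibitor related to Sprouty, was higher by 0.62 ± 0.15 (0.03) with diclofenac and 0.56 ± 0.15 with DMSO (0.045, and 0.069 without the high-background array). PEA15, an ERK-binding protein, was higher with diclofenac by 0.71 ± 0.15 (0.018). CCND1 read 9.1 and 19.6 in THP-1 with DMSO, not above background, against 65.1 and 55.2 in HL-60 with DMSO (limma adjusted p = 0.039). The log2 difference was -0.89, or -0.76 without the high-background array, where the call ended. The HL-60 readings lay just above the backgrounds of their arrays (60.2 and 51), so no fold bound is given.

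Of the 38 other immediate early genes, 32 were above background on at least 1 array, and the counts below take in all 38. In THP-1, 30 had a difference above 0, and the list median was 0.44 (0.35 without the high-background array, with 32 above 0). Limma called 1, beside 0.15% of all genes called higher and 0.00836% lower. An unadjusted p under 0.05 was found for 14, beside 10.6% of all probe sets. The called gene was KLF10, a zinc-finger factor induced early by growth signals, at 1.65 ± 0.22 (limma adjusted p = 0.048, and 1.41 without the high-background array), a call lost under median centring, without the trend, with THP-1 alone and without any 1 of the 4 HL-60 or 2 THP-1 diclofenac arrays. In HL-60, 17 of 38 were above 0, the median was -0.01, limma called 0 and 1 had an unadjusted p under 0.05, beside 4.51% of all probe sets. Between the lines with diclofenac 6 were higher and 1 lower in THP-1, beside 7.65% and 7.22% of all genes. KLF4 (1.84 ± 0.29), KLF2 (1.84 ± 0.35) and ATF3 (1.52 ± 0.35) were higher, and CD69 was at least 4.4-fold higher in HL-60, with limma adjusted p of 0.0012 to 0.022. With DMSO 2 were higher, KLF2 (1.46 ± 0.35) and JUND (0.56 ± 0.11), and 3 lower, KLF10 (-1.62 ± 0.22), SGK1 (-2.27 ± 0.45, or -1.58 without the high-background array) and CD69, which was at least 3.53-fold higher in HL-60, with limma adjusted p of 0.00093 to 0.024. Of all genes, 8.62% were called higher in THP-1 with DMSO and 8.79% lower. The difference between the lines' responses was called by limma for 0 genes of any of the 4 lists. An unadjusted p under 0.05 was found for 0, 1, 9 and 1 genes of the phosphatase, feedback, immediate early and cascade lists, beside 6.95% of all probe sets.

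Of the 20 measured genes of the RAS-ERK cascade, limma called 0 with diclofenac in either line. An unadjusted p under 0.05 was found for 2 in THP-1 and 1 in HL-60, beside 10.6% and 4.51% of all probe sets. The list median was 0.16 in THP-1 (0.05 without the high-background array) and 0.08 in HL-60. The values furthest from 0 in THP-1 were 1.51 for ELK3 and 1.19 for MAPK3, which encodes ERK1, and were 0.48 and 0.29 with the high-background array left out. MAP2K1, which encodes MEK1, the kinase just above ERK, read 741.2 and 707.1 in THP-1 with diclofenac, against 1875.1 and 1780 in HL-60 with diclofenac. With DMSO it read 681.9 and 657.4 in THP-1, against 1860.2 and 1696.8 in HL-60. It differed by -1.24 ± 0.13 with diclofenac (limma adjusted p = 0.00033) and by -1.37 ± 0.13 with DMSO (0.00018), so it lay on the same side, lower in THP-1, as DUSP4, DUSP5 and DUSP6. ELK3, an ETS factor that partners serum response factor, differed with DMSO by -3.09 ± 0.52 (0.0047, and -2.10 without the high-background array), and the adaptor SHC1 was higher by 0.73 ± 0.14 with diclofenac (0.0082) and 0.49 ± 0.14 with DMSO (0.045). The RAS exchange factor SOS2 was higher by 0.89 ± 0.20 (0.02) and the ERK-activated kinase RPS6KA3 lower, at -1.05 ± 0.22 (0.015), with diclofenac. With DMSO the phosphatase PTPN11 was higher by 0.42 ± 0.12 (0.047) and RPS6KA1 lower, at -1.34 ± 0.34 (0.032, and -0.73 log2 units without the high-background array).

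Across the 8 arrays, the log2 values of the DUSP6 and EGR1 representatives had a Pearson r of -0.48, a description over arrays that share 2 lines and 2 treatments. Within THP-1 both read higher with diclofenac, whereas in HL-60 DUSP6 read higher and EGR1 lower. Among 8773 other genes above background on at least 4 arrays, those most like DUSP6 were BST2, TNFRSF21, LAT, CEBPB and JUN, with r of 0.964 to 0.976. Those most like EGR1 were KCNG1, SKIL, IER5, TOB1 and TLR2, with r of 0.976 to 0.980. JUN, among those like DUSP6, and IER5, among those like EGR1, are themselves in the list of immediate early genes. Without the high-background array these r were 0.955 to 0.989 for DUSP6 and 0.976 to 0.985 for EGR1.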

How the data were processed

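Per the labels, biotin-labelled cRNA from total RNA was hybridised to Affymetrix human arrays. The software, background correction and probe summary behind the deposited intensity per probe set are not given in the sources used here. The deposited intensity values were linear, scaled to 1 trimmed mean per array (2% left off each end) and not centred across arrays. All 8 arrays were used, grouped by title, and their number limits the precision.

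Intensities became log2(value + 50) and were quantile-normalized. Of 22277 probe sets, 62 controls were left out. The annotation gave 1 symbol for 19064, several for 1043 and did not list 2108. A gene's representative is its brightest probe set, with _s_at and _x_at probe sets used only where no other exists. R 4.3.3 with limma 3.58.1 gave the group means, moderated with an intensity trend (4 residual and 4.41 prior degrees of freedom), and Benjamini-Hochberg adjustment ran over all 22215 p-values, with 0.05 as threshold. The script was tested on simulated data. Arrays were not paired by replicate number in the main fit. The correlation between deviations of same-numbered arrays was -0.01 for THP-1 and -0.00 for HL-60. For THP-1 this cannot decide whether the numbers pair arrays, because the high-background array enters the deviations.

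The members and the lists were chosen with earlier results of these data known. All members were named, and in each further list up to 3 genes per direction past the threshold with the largest change, or, where none passed in THP-1 with diclofenac, the 2 with the largest change there. Likeness was Pearson r over the 8 arrays. Alternatives were the deposited scale, median centring, an offset of 16, the dimmest 40% left out, no trend, a replicate block, the compared groups alone, averaging all probe sets per gene, and leaving out each array. Promoters are RefSeq windows on GRCh38.p14. Motif searches and plots used Python 3.11.15 with matplotlib 3.10.9.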

Additional observations from a re-analysis of the deposited data

Results flagged for a closer look

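In 3 probe sets both diclofenac arrays lay on one side of both DMSO arrays in THP-1 and on the other side in HL-60. This is an observation of opposite array order, and the limma test of the difference between the responses did not call any of them. For EGR1 201694_s_at the THP-1 response exceeded the HL-60 response by 1.44 log2 units (1.01 in THP-1 and -0.43 in HL-60, limma adjusted p = 0.36). For DUSP4 204015_s_at the excess was 0.66 (0.51 and -0.15, adjusted p = 0.78), and 0.30 without THP-1 DMSO replicate 2. For DUSP2 it was -1.06 (-0.52 and 0.54, adjusted p = 0.67). Of all probe sets, 3.59% were apart upward in THP-1 and downward in HL-60, and 4.05% the other way.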

How the results depend on the processing

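Of 324 member gene values under alternatives other than leaving out an array, 296 kept their direction and side of the threshold, or moved by less than the replicate spread where no test was run. A total of 13 lost a call, 7 changed sign and 8 moved by more, and the causes were not tested. Leaving out the dimmest 40%, no trend, a replicate block and the compared groups alone change the test but not the value. Under those settings no sign could change, and only a call could be gained or lost. Averaging probe sets also leaves the value of a gene with 1 probe set as it was. The count of 296 is therefore no measure of how firm the directions are. The sign changes were, on the deposited scale, DUSP5 in HL-60 (-0.030), DUSP4 in THP-1 (-0.058) and DUSP1 between the lines with DMSO (0.21). Under median centring they were IER3 in HL-60 (0.0050), IER3 between the lines with diclofenac (-0.0052) and SPRY2 between the lines with DMSO (-0.14), and with the mean of its probe sets PHLDA1 in HL-60 (0.24). For THP-1 diclofenac minus DMSO, the count of members called, 1, was 0 under median centring, without the trend and with THP-1 alone, and 2 with an offset of 16. Further pathway genes called, 1, were 0 under those 3 settings. Of all probe sets, 30 were called in the main fit, 0 under those 3 settings and 42 with an offset of 16. Members apart, 14, were 9 on the deposited scale, where the share of all probe sets was not computed. The median of the 9 genes was 0.24 on the deposited scale and 0.59 under centring in THP-1, and -0.16 on the deposited scale in HL-60. Between the lines with diclofenac, members called, 5, were 2 under centring, and further genes called, 15, were 7 under centring and 31 with the groups alone. With DMSO, members called, 6, were 2 with the groups alone, and further genes called, 14, were 9 on the deposited scale, 6 under centring, 9 without the trend and 4 with the groups alone. Calls over all probe sets between the lines with diclofenac were 2890 in the main fit, 1028 under centring and 5327 with the groups alone. With DMSO they were 3402 in the main fit, 2921 on the deposited scale and 1147 under centring. Without the trend they were 2620 with DMSO, and with the groups alone 1523. The groups alone give no value for the difference between responses.

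With the replicate number as a block, the count of members called was 0 in place of 1 for diclofenac in THP-1 and 3 in place of 5 between the lines with diclofenac. It changed no other count by over 1.5 times, and whether the numbers pair these arrays was not established. With the block 30 of all probe sets were called for diclofenac in THP-1, as without it. Between the lines with diclofenac 2449 of all probe sets were called, in place of 2890.

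Leaving out each array in turn, member values that changed sign ranged in HL-60 from -0.51 to 0.12 (DUSP1), -0.042 to 0.078 (DUSP5), -0.33 to 0.21 (IER3) and -0.23 to 0.14 (PHLDA1). In THP-1 DUSP4 ranged from -0.080 to 0.64, and between the lines IER3 with diclofenac from -0.047 to 0.11, DUSP1 with DMSO from -0.75 to 0.74 and SPRY2 with DMSO from -0.050 to 0.19. The median of the 9 genes ranged from 0.35 to 0.64 in THP-1 and from -0.074 to 0.078 in HL-60. Members called ranged from 0 to 6 for diclofenac in THP-1, 0 to 1 in HL-60, 0 to 5 for the difference between responses, 2 to 7 between the lines with diclofenac and 2 to 7 with DMSO. Further genes called ranged from 0 to 37 in THP-1, 0 to 23 for the difference, 3 to 26 between the lines with diclofenac and 5 to 41 with DMSO. The highest counts called came from leaving out THP-1 DMSO replicate 1, where the lone replicate 2 was assumed to vary like the other groups. For the lines with diclofenac they also came from leaving out replicate 2. Calls over all probe sets rose in these runs too, so the ranges of counts are not particular to these genes. Members apart ranged from 9 to 16 in HL-60, 3 to 6 for the difference and 10 to 15 between the lines with DMSO. In HL-60 the count was above 9 only where an HL-60 array was left out. A lone array lies apart from 2 more easily than 2 arrays do. The share of all probe sets apart was not computed for these runs, so these ranges say nothing particular about the members. Probe sets not above background have only a bound, and with 2 arrays a group small changes cannot be told from array spread.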
